A study of Mus musculus with 7 samples.

Results

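The genes described here are 9 genes of arginine metabolism and of the alternatively activated (interleukin-4 or interleukin-13 induced) macrophage state: the arginine transporter Slc7a2, the arginases Arg1 and Arg2, the inducible nitric oxide synthase Nos2, the arginine-making enzyme Ass1, the receptor chain Il4ra, and the markers Mgl2, Retnla and Pla2g7. They were taken by symbol. All 9 were among the 15155 genes of the donor table and the 26383 of the keratinocyte table, and 8 were among the 23737 of the host table, where Retnla was not listed. On the RefSeq annotation of GRCm38.p6 the genes lie apart, with Arg1 at chr10:24915207-24927470, Arg2 at chr12:79130788-79156301, Slc7a2 at chr8:40862341-40922070, Ass1 at chr2:31470270-31520670 and Il4ra at chr7:125552271-125579474. Mgl2 (chr11:70130125-70137542) and Nos2 (chr11:78920787-78960226) share a chromosome, and Retnla lies at chr16:48842609-48844461 and Pla2g7 at chr17:43567994-43612202. Levels are UMIs (unique molecular identifiers, one per captured transcript) per 10000 UMIs of the cell, written CP10K. They are averaged over the cells of a cluster within a library, except where UMIs of cells are said to be pooled.

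The cells came from mouse epidermis 3 weeks after bone marrow transplantation (BMT), in which irradiated male CD45.2 C57BL/6 hosts had received marrow of female CD45.1 C57BL/6 donors. Single-cell RNA-seq (10x, read from the 5′ end) was run on sorted CD11b+MHCII+ donor cells, on host cells of the same gate, and on CD45- keratinocytes. Per the labels, 3 donor libraries were BMT (replicates 1 to 3) and 1 was BMT + T cells, while keratinocytes gave 1 library of each kind and the host cells 1 BMT library. The series' design text differs from the labels, since it gives T cells (CD4 cells, and CD8 cells of the Matahari line, whose receptor recognises a male antigen) to the hosts without setting libraries apart, so the T-cell difference between groups is only as the labels state it. Cells of several mice were pooled for a library, so the spread between libraries is not a spread between single mice and may be partly technical.

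The donor libraries held 2572, 8382 and 226 cells (BMT replicates 1 to 3) and 719 cells (BMT + T cells), with median depths of 7021.5 to 13387 UMIs a cell. Only 8 of 11891 donor barcodes occurred in more than 1 library. The 9 annotated donor clusters were monocytes (Mono), interferon-stimulated (ISG) monocytes, Hmox1+ and S100a+ monocytes, Mrc1+ macrophages, monocyte-derived cells (MC), and resident, cycling and migrating monocyte-derived Langerhans cells (mLC). Each annotated cluster was the highest for its own summed marker list, except MC, whose list (Ccl17, Dcstamp, Itgax) was highest in migrating mLC. Mrc1 alone did not set Mrc1+ macrophages apart. It averaged 5.65 CP10K there and 5.64 CP10K in Mono, with 5.87 CP10K in Hmox1+ and 7.14 CP10K in S100a+ monocytes. The S100a+ monocytes passed 20 cells in BMT replicate 2 alone. Their summed neutrophil markers (5 of 6 listed genes were in the donor table) reached 560 CP10K, against 0.0678 to 48.5 CP10K in the other clusters. Of this sum, 509 CP10K came from S100a8 and S100a9, which are also the cluster's own markers. Retnlg, another gene of the list, stood at 41.7 CP10K there and at no more than 0.209 CP10K elsewhere. Clusters are described only in libraries where they held at least 20 cells.

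Arginine reaches the macrophage through cationic amino acid transporters, and inside the cell arginase and nitric oxide synthase compete for it. Arginase turns it into ornithine, the precursor of polyamines and proline, whereas nitric oxide synthase turns it into nitric oxide and citrulline, from which Ass1 starts the return to arginine. Interleukin-4 and interleukin-13 act through Il4ra and STAT6 to induce Arg1, Mgl2 and Retnla in mouse macrophages, and interferon-gamma with microbial products induces Nos2.

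**Figure D1:**
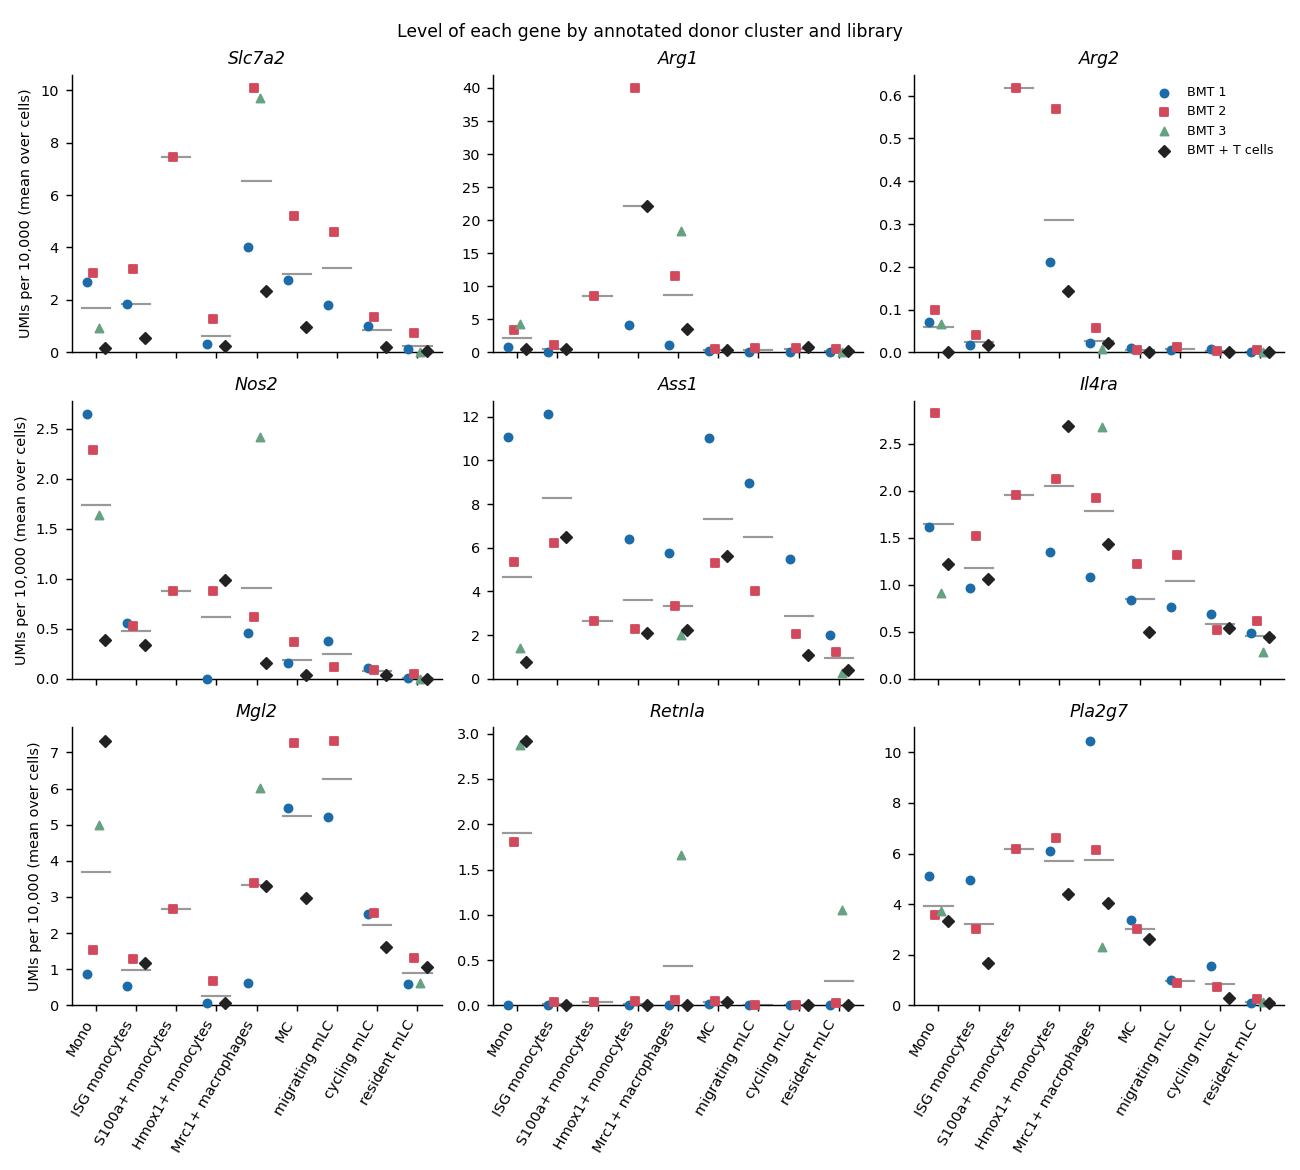
Level of each gene (y axis, mean CP10K over the cells, linear from 0, a scale of its own in each panel) by annotated donor cluster (x axis). Each point is a library with at least 20 cells in the cluster and each grey line the mean over those libraries; Arg1 was highest in Hmox1+ monocytes, and resident mLC lay at or near the bottom in most panels.

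Slc7a2, the transporter, was high in the macrophages and lowest in resident mLC. In Mrc1+ macrophages it stood at 4.03, 10.1 and 9.69 CP10K in BMT replicates 1 to 3 and at 2.35 CP10K in BMT + T cells. Resident mLC held 0.117, 0.755 and 0.0225 CP10K, and 0.0497 CP10K in BMT + T cells. The 2 clusters did not overlap. S100a+ monocytes reached 7.45 CP10K in the single library that held them, below the Mrc1+ macrophages of that library. Between these ends lay migrating mLC (3.20 CP10K ± 1.96, SD, n = 2), MC (2.98 ± 2.13, n = 3), ISG monocytes (1.86 ± 1.33, n = 3), Mono (1.71 ± 1.38, n = 4), cycling mLC (0.849 ± 0.579, n = 3) and Hmox1+ monocytes (0.616 ± 0.576, n = 3), and all of these neighbours overlapped.

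Arg1, the cytosolic arginase, had its highest level in Hmox1+ monocytes, a small cluster named for the heme-degrading enzyme Hmox1. Arg1 stood there at 4.12, 40.0 and 22.1 CP10K (BMT replicates 1 and 2, and BMT + T cells). In Mrc1+ macrophages it was 1.15, 11.5 and 18.3 CP10K in BMT replicates 1 to 3 and 3.53 CP10K in BMT + T cells. Within each of the 3 libraries that had both, Hmox1+ monocytes were the higher, by 3.48 to 6.27 times, although the ranges over libraries overlapped. Mono had 0.828, 3.34, 4.25 and 0.465 CP10K in the same order of libraries, and S100a+ monocytes 8.58 CP10K. Hmox1+ monocytes also carried summed neutrophil markers of 5.89 to 48.5 CP10K, of which S100a8 and S100a9 gave 5.19 to 48.1 CP10K. Mrc1+ macrophages had 1.21 to 9.25 CP10K of the same list. The part of these markers in the Arg1 level was not tested.

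Arg1 was low in the mLC clusters. It stood at 0.00707, 0.468 and 0 CP10K in resident mLC of BMT replicates 1 to 3 and at 0.286 CP10K in BMT + T cells. No Arg1 UMI was found in the 51 resident mLC of BMT replicate 3 or in the 48 cycling and 91 migrating mLC of BMT replicate 1. Elsewhere cycling mLC reached 0.649 and 0.766 CP10K (BMT replicate 2 and BMT + T cells) and migrating mLC 0.620 CP10K (BMT replicate 2), above MC (0.267 to 0.587 CP10K) and within the range of ISG monocytes (0.122 to 1.08 CP10K). In shares of cells, at least 1 Arg1 UMI was found in 20.8%, 86.2% and 84.0% of Hmox1+ monocytes (medians of 7324.5, 3751 and 8924 UMIs a cell). In resident mLC the share was 0 to 7.32%, at medians of 7343 to 18027 UMIs. With every cell thinned to 2000 UMIs the shares were 16.7%, 77.8% and 70.8% in Hmox1+ monocytes and 0 to 2.84% in resident mLC. Thinning left out 38 to 770 shallower cells a library.

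Arg2, the mitochondrial arginase, was sparse: 475 UMIs in 391 of 11899 donor cells, at most 7 in a cell. Its level was 0.618 CP10K in S100a+ monocytes and 0.212, 0.569 and 0.143 CP10K in Hmox1+ monocytes. All other clusters stayed under 0.1 CP10K in every library. The summed neutrophil markers were also highest in S100a+ and Hmox1+ monocytes, but these sums were mostly S100a8 and S100a9. The range of these marker sums in Hmox1+ monocytes overlapped that in Mrc1+ macrophages. The part of neutrophils in the Arg2 level was not tested. Arg2 fell under the mean of 0.1 CP10K required for testing and entered no test.

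Nos2 was highest in Mono, at 2.65, 2.29 and 1.64 CP10K in BMT replicates 1 to 3 and 0.385 CP10K in BMT + T cells. Mrc1+ macrophages had 0.455, 0.614, 2.42 and 0.161 CP10K, and BMT replicate 3 was the 1 library of 4 in which they exceeded Mono. Hmox1+ monocytes varied from no UMI in the 24 cells of BMT replicate 1 to 0.992 CP10K in BMT + T cells. Resident mLC were near 0, at 0.00509, 0.0488, 0 and 0.00171 CP10K.

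Ass1 was the most widely detected of the 9, with a UMI in 71.4% of donor cells. It was highest in ISG monocytes (12.1, 6.20 and 6.48 CP10K in BMT replicates 1 and 2 and in BMT + T cells) and in MC (11, 5.29 and 5.61 CP10K). In both clusters BMT replicate 1 stood well above the other 2 libraries. Mono spanned 0.789 to 11.1 CP10K, the widest range between libraries of any cluster for this gene. Resident mLC were lowest, at 2.01, 1.25, 0.259 and 0.390 CP10K. Keratinocytes held Ass1 too, at 2.54 CP10K (BMT) and 2.40 CP10K (BMT + T cells) with a UMI in 75.0% and 74.7% of cells. Keratinocyte markers (5 of 7 listed genes were in the donor table) summed to 0.305 to 1.19 CP10K in resident mLC and 0.231 to 0.917 CP10K in MC, and their part in the donor Ass1 levels was not tested.

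Il4ra, the signaling chain of the interleukin-4 and interleukin-13 receptors, was low but broad, with a UMI in 53.6% of donor cells and cluster means of 0.457 to 2.05 CP10K. Hmox1+ monocytes had 1.35, 2.13 and 2.69 CP10K, Mrc1+ macrophages 1.08 to 2.68 CP10K, Mono 0.916 to 2.83 CP10K, and resident mLC 0.283 to 0.612 CP10K. The upper clusters overlapped each other. No Mrc1+ macrophage value lay within the range of resident mLC.

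Mgl2, a galactose-binding lectin of macrophages and dermal dendritic cells, was placed differently from Arg1. Its highest levels were in migrating mLC (5.22 and 7.30 CP10K in BMT replicates 1 and 2) and MC (5.47, 7.25 and, in BMT + T cells, 2.97 CP10K). Hmox1+ monocytes, where Arg1 peaked, were its lowest cluster, at 0.0543, 0.669 and 0.0654 CP10K. Mono differed widely between libraries, from 0.858 and 1.53 CP10K in BMT replicates 1 and 2 to 5.0 CP10K in BMT replicate 3 and 7.33 CP10K in BMT + T cells. The close paralog Clec10a, whose reads could be shared with Mgl2, was ordered otherwise: Mono led (1.26 CP10K ± 0.955, SD, n = 4), above Mrc1+ macrophages in 4 of 4 libraries.

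Retnla encodes a secreted protein of alternatively activated macrophages and eosinophils. Mono held no Retnla UMI in BMT replicate 1 and stood at 1.80, 2.87 and 2.92 CP10K in BMT replicates 2 and 3 and in BMT + T cells. Mrc1+ macrophages stood at 0.00457 and 0.0627 CP10K in BMT replicates 1 and 2, at 1.66 CP10K (6 UMIs) in BMT replicate 3 and at 0 in BMT + T cells. These levels rested on few cells. Without the cells described next, Mono stood at 0, 0.0398, 0.0197 and 0.913 CP10K, the last from 9 UMIs. Of its 1473 donor UMIs, 1284 (87.2%) lay in 18 cells with 10 or more, and the highest cell held 265. By contrast, 2.45% of Il4ra UMIs and 81.8% of Arg1 UMIs lay in cells with 10 or more, the latter spread over 757 cells. The limit of 10 was chosen after the counts were seen. The 250 bases before the RefSeq start of Retnla (GRCm38.p6, plus strand, chr16:48842359-48842608) are shown because they hold a STAT6-type element, TTCNNNNGAA, in capitals:
Retnla: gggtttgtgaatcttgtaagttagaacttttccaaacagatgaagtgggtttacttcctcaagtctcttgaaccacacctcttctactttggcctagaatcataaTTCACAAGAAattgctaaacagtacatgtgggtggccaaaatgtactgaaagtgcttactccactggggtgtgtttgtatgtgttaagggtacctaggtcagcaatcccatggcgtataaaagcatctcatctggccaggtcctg
The element lies 145 bases before the start. Among promoter windows of 300 bases, 6.95% of 32851 held it on either strand, as did 1 of the 5 windows found for these genes (Ass1, Il4ra, Mgl2, Pla2g7, Retnla). The shorter TTCNNNGAA occurred in 8.3% of windows and among the 5 in Pla2g7 only, as TTCCGTGAA. A match describes letters and not a bound site.

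**Figure D2:**
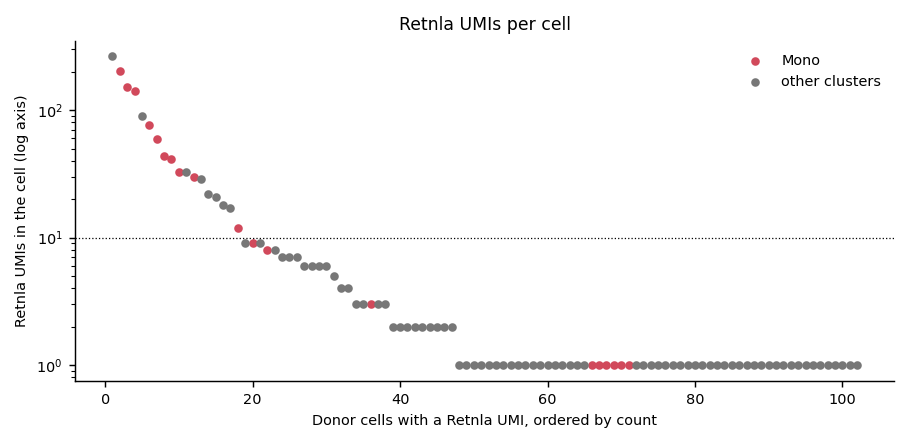
Retnla UMIs (y axis, log scale) in each of the 102 donor cells with at least 1, ordered by count (x axis), with cells of Mono in red and a dotted line at 10. Of the 18 cells at or above the line, 10 belong to Mono.

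The Retnla-high cells were 10 of 938 cells in Mono (5 in BMT replicate 2, 4 in BMT replicate 3 and 1 in BMT + T cells), 3 in MC, 2 in Mrc1+ macrophages and 1 each in S100a+ monocytes, migrating mLC and resident mLC. All 18 together held 12 UMIs of Arg1 (2 cells), 87 of Slc7a2 (6 cells), 38 of Nos2 (2 cells) and 55 of Ass1 (6 cells), every one outside Mono. The 10 in Mono held no UMI of Arg1, Arg2, Slc7a2, Nos2 or Ass1, which allows up to 0.374 CP10K for each (exact Poisson, 95%, counting error only). In the 3 libraries with such cells, the other 682 cells of Mono held 2.75 CP10K of Arg1, 2.23 of Slc7a2, 1.65 of Nos2 and 3.76 of Ass1. Many of those 682 held none either. At least 1 UMI was found in 23.6% of them for Arg1, 34.0% for Slc7a2, 22.1% for Nos2, 4.84% for Arg2 and 65.1% for Ass1. UMIs of the same cell are not independent counts, so the limit above is too narrow. Whether the 10 cells differ from these shares was not tested. Mgl2 differed between these libraries. In BMT replicate 2 it stood at 17.3 CP10K (12.9 to 22.7) in the 5 Retnla-high cells and at 1.69 (1.55 to 1.84) in the other Mono cells, whereas in BMT replicate 3 it stood at 7.63 CP10K (5.70 to 10.0) in the 4 cells and at 7.35 (6.83 to 7.89) in the rest. The intervals of Pla2g7 overlapped in both libraries (2.71 against 3.61 CP10K and 3.52 against 3.24 CP10K). Of the monocyte genes, Ly6c2 and Plac8 had no UMI in the 5 cells of BMT replicate 2 and stood at 1.17 and 0.734 CP10K in the 4 of BMT replicate 3, against 13 and 21.9 CP10K and 7.87 and 10.7 CP10K in the rest of these libraries. Lyz2 ran the other way, at 74.6 against 50.6 CP10K and 202 against 111 CP10K, and Chil3 was at 0 against 10.6 CP10K in BMT replicate 2 and at 3.37 against 1.72 CP10K in BMT replicate 3. These intervals (exact Poisson) cover counting in the pooled cells of a library, and no test was made.

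Pla2g7, a secreted phospholipase that hydrolyses platelet-activating factor, marked the monocyte and macrophage clusters against the mLC. Mrc1+ macrophages had 10.5, 6.15 and 2.32 CP10K in BMT replicates 1 to 3 and 4.06 CP10K in BMT + T cells. Hmox1+ monocytes had 6.10, 6.61 and 4.40 CP10K, Mono 3.32 to 5.12 CP10K and MC 2.61 to 3.39 CP10K. Migrating mLC (0.901 and 1.00 CP10K), cycling mLC (0.298 to 1.56 CP10K) and resident mLC (0.0919 to 0.243 CP10K) followed. MC did not overlap migrating mLC and cycling mLC did not overlap resident mLC, whereas the clusters above MC all overlapped their neighbours.

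The cluster differences were then fitted with limma on log2(CP10K + 0.1), with the library as a block and Benjamini-Hochberg adjustment over all 7267 genes tested. A gene was called at an adjusted p under 0.05 and a log2 difference beyond 2 in size. The clusters had been drawn from the same expression values, so a call describes the annotation, and Arg1 in Mrc1+ macrophages, Mgl2 in MC, and Arg1, Slc7a2 and Pla2g7 between Mrc1+ macrophages and resident mLC are given with no p because they had been named for those contrasts before. Of the 9 genes, 8 were tested.

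**Figure D3:**
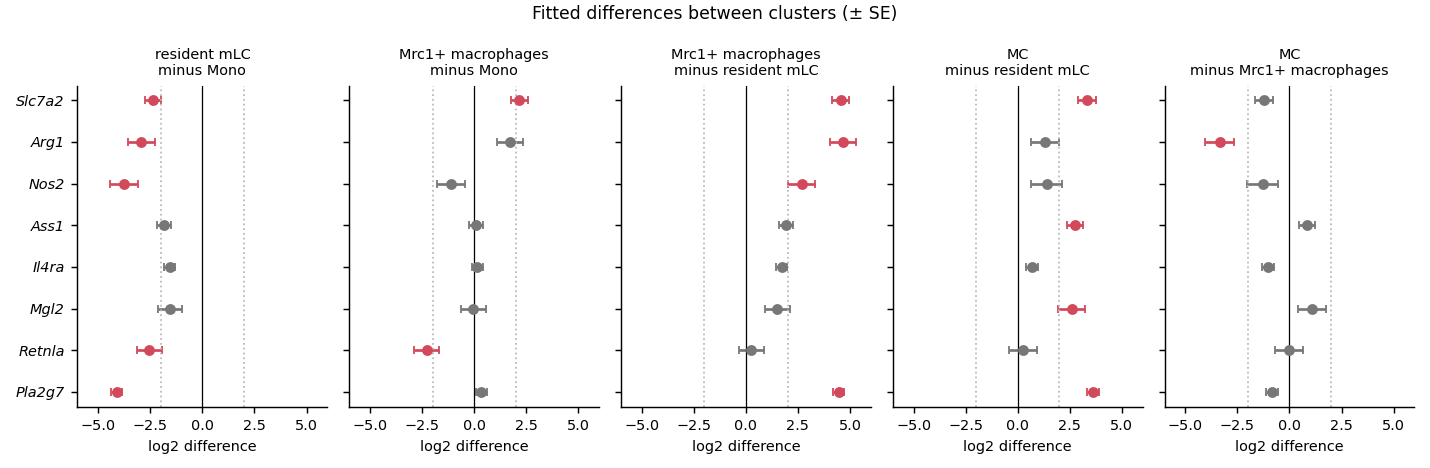
Fitted log2 difference (x axis, points, with SE as bars) of the 8 tested genes in 5 comparisons of clusters, red where both thresholds were passed; dotted lines mark 2 and -2. Every point of resident mLC minus Mono lies below 0.

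Resident mLC held less of most of these genes than Mono did. In resident mLC minus Mono, 5 of 8 were called, all lower, where 4.06% of all genes tested were called and 2.56% were called lower. Pla2g7 differed by -4.10 (SE 0.264, adjusted p = 1.43e-11) and Nos2 by -3.77 (SE 0.669, adjusted p = 0.000232), both lower in 4 of 4 libraries. Arg1 differed by -2.93 (SE 0.629, adjusted p = 0.00166), Slc7a2 by -2.37 (SE 0.391, adjusted p = 7.76e-05) and Retnla by -2.55 (SE 0.611, adjusted p = 0.00307). Ass1 (-1.84) and Il4ra (-1.57) passed the adjusted p but not the size, as 32.7% of all genes passed that p, and Mgl2 differed by -1.56 (SE 0.592, adjusted p = 0.0537). The Retnla call rested on few cells: without the 18 Retnla-high cells it was -0.94 and not called, and it was lost without BMT + T cells (-1.76) or BMT replicate 2 (-2.09). The Slc7a2 call was lost without BMT replicate 1 (-1.93), and neither it nor the Retnla call was made without the library block.

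Mrc1+ macrophages and Mono differed in 2 of 8 genes, against 0.413% of all genes tested. Slc7a2 was higher in the macrophages by 2.18 (SE 0.391, adjusted p = 0.00138), in 4 of 4 libraries. Retnla differed by -2.29 (SE 0.611, adjusted p = 0.0247), lower in 3 of 4 libraries. Arg1 differed by 1.73 (SE 0.629) and was higher in 4 of 4 libraries. Nos2 differed by -1.10 (SE 0.669, adjusted p = 0.347), and Pla2g7 by 0.35 (SE 0.264, adjusted p = 0.460). Without the Retnla-high cells the Retnla difference was 0.14, with the other sign, and the call was lost without BMT + T cells (-1.41) or BMT replicate 2 (-1.87). Slc7a2 stayed under the size threshold without BMT + T cells (1.83) or BMT replicate 3 (1.82), and neither gene was called in the fit without the library block. Ass1, Il4ra and Mgl2 differed by less than their SE.

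Against resident mLC, Mrc1+ macrophages were higher in 4 of 8 genes past both thresholds, where 3.51% of all genes were called and 2.46% called higher. Of the 4, 3 had been named for this contrast before, so the count is a description and cannot be read against that share. These were Arg1 (4.66, SE 0.629), Slc7a2 (4.54, SE 0.391) and Pla2g7 (4.45, SE 0.264). Nos2 was the other, at 2.67 (SE 0.669, adjusted p = 0.00475), higher in 4 of 4 libraries. It missed the adjusted threshold without BMT replicate 2 (2.81) or BMT replicate 3 (2.01). Ass1 (1.91, SE 0.336, adjusted p = 0.000163) and Il4ra (1.72, SE 0.269, adjusted p = 2.03e-05) passed the adjusted p alone, a threshold that 31.5% of all genes passed, and Ass1 also passed the size without BMT replicate 1 (2.06) or 2 (2.10).

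MC, the monocyte-derived cells, were set against both. In MC minus resident mLC 4 of 8 genes were called, all higher, where 2.09% of all genes were called and 1.32% called higher: Pla2g7 (3.6, SE 0.292, adjusted p = 3.41e-09), Slc7a2 (3.34, SE 0.432, adjusted p = 1.09e-05), Ass1 (2.75, SE 0.371, adjusted p = 1.90e-05) and Mgl2 (2.60, SE 0.655), each in 3 of 3 libraries. Mgl2, which had been named for MC before, lost the call without BMT replicate 1 (2.24) or 2 (2.61). Arg1 (1.31, SE 0.696, adjusted p = 0.230) and Nos2 (1.39, SE 0.739, adjusted p = 0.229) did not pass. Against Mrc1+ macrophages, 0.372% of all genes were called and 1 of these 8: Arg1, which had been named for the macrophages before. Arg1 stood at 0.267, 0.587 and 0.310 CP10K in MC and differed by -3.35 (SE 0.696). The call was lost without BMT replicate 1 (-4.01) or 2 (-2.97) and without the library block. Il4ra (-1.04, SE 0.297, adjusted p = 0.0412) passed the adjusted p only, as did 4.94% of all genes whatever their size. Slc7a2 differed there by -1.2 (SE 0.432, adjusted p = 0.121), Pla2g7 by -0.85 (SE 0.292, adjusted p = 0.0967) and Ass1 by 0.83 (SE 0.371, adjusted p = 0.219).

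Lists of related genes gave the setting. Of 36 genes of arginine, polyamine and nitric oxide metabolism, 21 were tested. In Mrc1+ macrophages minus resident mLC, 4 were called higher and 0 lower, where 2.46% of all genes were called higher. The median difference was 0.10 against -0.12 over all genes. Besides Nos2, and Arg1 and Slc7a2, which had been named for this contrast before, the called gene was Gatm (3.71, SE 0.411, adjusted p = 5.85e-07), which makes the creatine precursor from arginine. Gatm was also called lower in resident mLC than in Mono (-2.74, SE 0.411, adjusted p = 2.49e-05) and higher in MC than in resident mLC (2.82, SE 0.454, adjusted p = 0.000150). The median over the 21 genes lay between -0.22 and 0.17 in the 5 comparisons of clusters.

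Of 20 genes of interleukin-4 and interleukin-13 receptor signaling, 13 were tested. In resident mLC minus Mono, where 2.56% of all genes were called lower, 2 were called lower and the median was -0.68 against 0.14 over all genes. These were Socs3 (-2.64, SE 0.280, adjusted p = 6.38e-08), a feedback inhibitor of cytokine signaling, and the transcription factor gene Klf4 (-2.42, SE 0.229, adjusted p = 8.51e-09). Socs3 was also the 1 gene called in Mrc1+ macrophages minus resident mLC (2.38, SE 0.280, adjusted p = 3.68e-07), where 2.46% of all genes were called higher. Irf4, a transcription factor of dendritic cells and alternatively activated macrophages, was the 1 gene called in MC minus resident mLC (2.50, SE 0.396, adjusted p = 6.01e-05), where 1.32% of all genes were called higher.

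Alternative and classical activation genes were low together in resident mLC. Of 26 alternative activation genes, 19 were tested. In resident mLC minus Mono, 13 were called lower and 1 higher, where 4.06% of all genes were called and 2.56% called lower. The median was -2.55 against 0.14 over all genes. Chil3 (-4.55, SE 0.514, adjusted p = 1.48e-06), a chitinase-like protein gene that is also a monocyte marker, and the chemokine gene Ccl24 (-4.31, SE 0.751, adjusted p = 0.000286) led. The 1 called higher was the E-cadherin gene Cdh1 (2.56, SE 0.637, adjusted p = 0.00547), which also serves the anchoring of Langerhans cells to keratinocytes. Of 22 classical activation genes, 16 were tested, and 9 were called lower and 0 higher (median -2.06), among them Il1b (-4.78, SE 0.532, adjusted p = 2.17e-06), Ccl5 (-4.32, SE 0.484, adjusted p = 1.22e-06) and Cxcl9 (-3.51, SE 0.642, adjusted p = 0.000443). In Mrc1+ macrophages minus resident mLC, 12 of 19 alternative and 6 of 16 classical activation genes were called higher and none lower, where 2.46% of all genes were called higher. The alternative list shares Mrc1, Ccl24, Chil3, Ccl17 and Ccl22 with the cluster markers, so part of its counts repeats the annotation. It also holds Arg1, Slc7a2 and Pla2g7, named for this contrast before. In Mrc1+ macrophages minus Mono, where 0.413% of all genes were called, 1 alternative activation gene was called in each direction (Slc7a2 and Retnla) and no classical one.

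Some cells held both Arg1 and Nos2, the competing enzymes. Within Mrc1+ macrophages, 14 of 403 cells of BMT replicate 1, 204 of 2602 of BMT replicate 2, 8 of 45 of BMT replicate 3 and 3 of 73 of BMT + T cells held UMIs of both. Nos2 was thus found in 24.1%, 16.6%, 61.5% and 33.3% of the cells with Arg1 and in 12.2%, 7.56%, 6.25% and 3.13% of those without. The log2 odds ratio (0.5 added to each count) was 1.22 to 4.24 in the 4 libraries. After thinning to 2000 UMIs a cell it was 0.66 to 5.29 in the 3 BMT libraries, and BMT + T cells had 0 cells with both. In Mono it was 0.96 to 6.83 before thinning, with 1 cell holding both in BMT + T cells. After thinning it was 1.00 to 5.18 in the 3 BMT libraries, and BMT + T cells again had 0 cells with both. The values that follow are before thinning unless stated. In Hmox1+ monocytes, where Arg1 was highest, Nos2 was found in 13.2% of cells with Arg1 and 11.8% of those without in BMT replicate 2 (-0.04), in 21.3% and 5.88% in BMT + T cells (1.61), and in no cell of BMT replicate 1. For Arg1 with Slc7a2 it was 1.22 to 7.42 in Mrc1+ macrophages and 1.23 to 5.31 in Mono, although the Mono cells of BMT + T cells held 0 with both, so that their value rests on the added constant. Arg1 with Mgl2 was above 0 in 3 of 4 libraries for Mrc1+ macrophages and 2 of 4 for Mono, and after thinning in 4 of 4 and 1 of 4. Arg1 with Ass1 and with Il4ra was above 0 in 4 of 4 libraries in both clusters before thinning. For Arg1 with Nos2 and with Slc7a2, the highest odds ratios came from BMT replicate 3, with 45 and 82 cells. Cells of 1 library are not replicates, and no test was made.

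Across the 27 values of library and cluster, each set against its library's mean, the genes most like Arg1 among 7267 were Abca1 (Pearson's r = 0.914), a cholesterol exporter gene, Ppp1r15b (0.912), Atp6v1a (0.910), a subunit of the vacuolar proton pump, Ms4a4a (0.910) and Mindy1 (0.903). Of the 9 genes themselves, Arg2 fell under the mean required and was not compared. Among the others, Il4ra (0.819) and Pla2g7 (0.721) were nearest to Arg1, and Mgl2 (-0.322) was farthest. The genes most like Mgl2 were Prkar2a (0.890), a regulatory subunit of protein kinase A, Wdfy4 (0.872), known from cross-presentation in dendritic cells, Pdlim1 (0.845), Slc27a3 (0.825) and Uhmk1 (0.810). The points share libraries and clusters, so these values are a description. Which genes ranked highest also changed when a library was left out, more for Arg1 than for Mgl2.

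**Figure D4:**
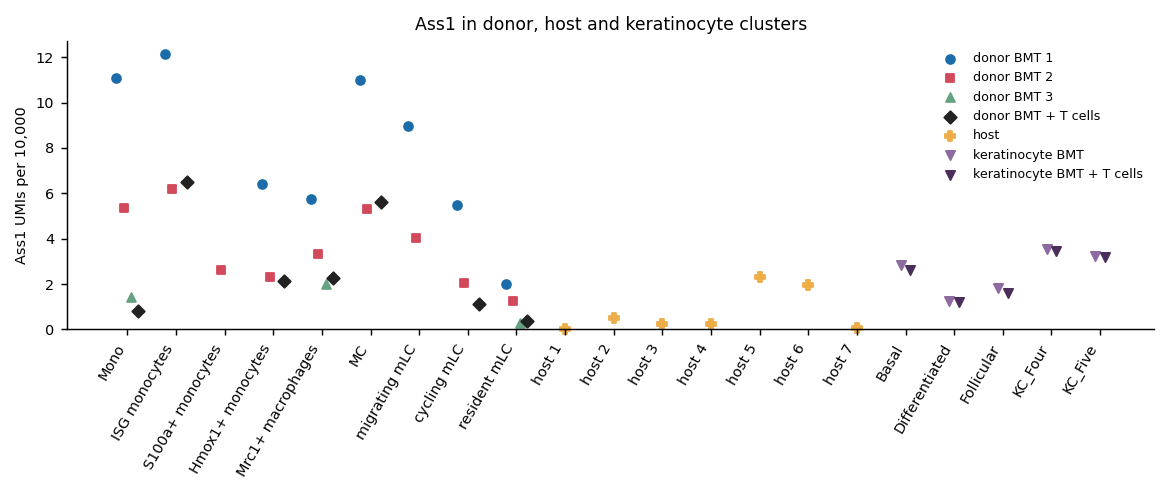
Ass1 level (y axis, CP10K, linear from 0) in donor clusters by library, in host clusters 1 to 7, and in the 5 keratinocyte clusters of both libraries (x axis, clusters). Host clusters 1 to 4 lie at or below 0.52 CP10K, host clusters 5 and 6 at 2.31 and 1.97 CP10K.

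The host table held the recipients' own cells. Of its 781 cells, with a median of 4376 UMIs and 14% mitochondrial UMIs, 697 lay in clusters 1 to 4, which carried Cd207 (1.56 to 14 CP10K) and Mfge8 (7.47 to 26.6 CP10K), genes of Langerhans cells. Cluster 5 (43 cells) carried the keratin gene Krt14 at 205 CP10K and cluster 6 (23 cells) the T-cell receptor subunit gene Cd3g at 75.4 CP10K, so these 2 went against the sorted myeloid label, and cluster 7 (18 cells) also carried Krt14 (25.5 CP10K). Clusters 1 to 4 held 8 Arg1 UMIs, 4 Arg2, 1 Nos2 and no Pla2g7 UMI in 697 cells. For Pla2g7, 3 cells of 697 would be 0.430%, and the upper limit of the exact 95% interval was 0.528%. Mgl2 was found in 4.73% of these cells (0.0802 CP10K), Slc7a2 in 10.8% (0.206 CP10K) and Il4ra in 9.76% (0.237 CP10K). Donor resident mLC had 0.580 to 1.30 CP10K of Mgl2 and 0.0225 to 0.755 CP10K of Slc7a2, but the tables were normalized separately and the host had 1 library, so no test was made.

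Most host Ass1 came from outside the Langerhans clusters. Cluster 5, with the keratin genes, held 347 of 414 Ass1 UMIs, found in 43 of 43 cells, and cluster 6 held 35. Clusters 1 to 4 held 31, in 17 of 697 cells (2.44%, exact interval up to 3.88%). In the keratinocyte libraries the level ran from 1.2 CP10K in differentiated cells to 3.53 CP10K in cluster KC_Four. These libraries held next to none of the other genes: 3 and 1 UMIs of Arg1, 2 and 2 of Nos2, 1 and 1 of Mgl2 and none of Retnla, while Il4ra was found in 8.92% and 9.23% of cells (0.110 and 0.121 CP10K).

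Donor libraries of the same label differed widely. Between BMT replicates 1 and 2, Arg1 was higher in replicate 2 in 8 of 8 shared clusters, with a median ratio of 8.88 over the 5 with more than 3 UMIs in replicate 1. Slc7a2 (median ratio 2.20) and Mgl2 (1.78) were higher in 8 of 8 as well. Ass1 was lower in 8 of 8 (0.482). Nos2 was higher in 4 of 8. These 2 libraries share the labels' treatment.

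**Figure D5:**
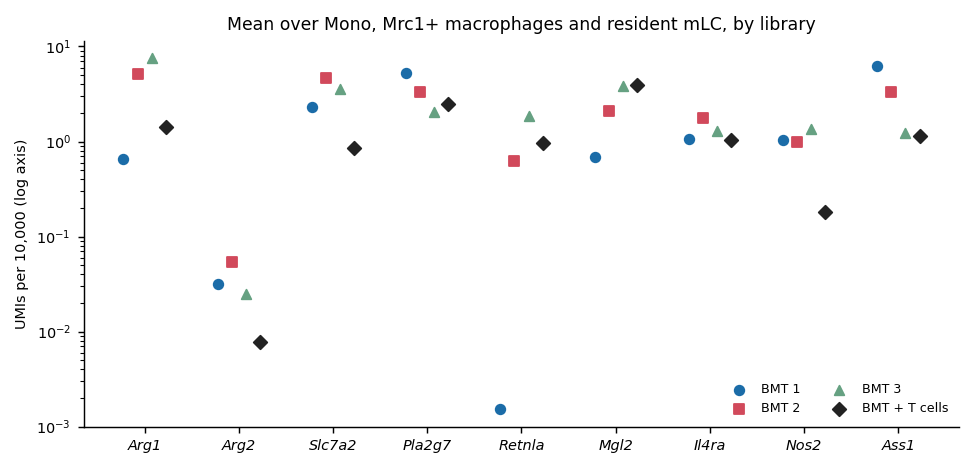
Level of each gene (y axis, CP10K, log scale) averaged with equal weight over Mono, Mrc1+ macrophages and resident mLC in each of the 4 donor libraries (x axis, genes). For Nos2 and Slc7a2 the BMT + T cells library lies below the 3 BMT libraries, as it also does for Arg2, Ass1 and Il4ra.

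The comparison of labels asked whether the genes differed where T cells were given with the marrow. It used the mean over Mono, Mrc1+ macrophages and resident mLC, the 3 clusters with at least 20 cells in all 4 libraries, and 1 library against 3, so the spread of the single BMT + T cells library was taken from the BMT libraries. With a threshold of 1 on the log2 scale, limma called 0 of the 8 genes tested, as 0.0% of all 7345, and voom called 0. Unadjusted p was under 0.05 for 316 genes (4.3%), 2 of these among the 8. Nos2 stood at 1.04, 0.984 and 1.35 CP10K in BMT replicates 1 to 3 and at 0.183 CP10K in BMT + T cells, a difference of -2.10 (SE 0.283, adjusted p = 0.245). Slc7a2 stood at 2.28, 4.63 and 3.55 CP10K and at 0.855 CP10K, a difference of -1.85 (SE 0.388, adjusted p = 0.704). For both genes BMT + T cells lay below all 3 BMT libraries. This was not particular to them, since it also held for Arg2, Ass1 and Il4ra. In Hmox1+ monocytes, outside this comparison, Nos2 ran the other way, at 0.992 CP10K in BMT + T cells against 0 and 0.875 CP10K in BMT replicates 1 and 2.

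Ass1 stood at 6.28, 3.31 and 1.24 CP10K in BMT and 1.14 CP10K in BMT + T cells (-1.31, SE 0.736, adjusted p = 0.982), and Mgl2 at 0.683, 2.07 and 3.88 CP10K against 3.90 CP10K (1.08, SE 0.764, adjusted p = 0.982). In both, BMT replicate 3 was the nearest library. The short names of the libraries put BMT replicates 1 and 2 in one form and BMT replicate 3 and BMT + T cells in another, the meaning of which the labels do not give. Against BMT replicate 3 alone, a value with no test, the difference was -2.36 for Nos2, -1.93 for Slc7a2, -0.10 for Ass1 and 0.01 for Mgl2. Il4ra differed by -0.35 (SE 0.321, adjusted p = 0.982), and Arg1, Pla2g7 and Retnla by less than their SE. Leaving out BMT replicate 3 took the count over all genes from 0 to 127, Slc7a2 among them (-1.83), in a fit with 1 residual degree of freedom.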

How the data were processed

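Donor, host and keratinocyte single-cell libraries were read from 3 tables. The authors deposited natural log values, ln(1 + UMIs per 10000), with annotated clusters and the percent of mitochondrial UMIs of each cell as deposited; the submitters' processing notes name kallisto, bustools, Seurat and GRCm38. Inverting the log gave whole UMIs for 100% of values above 0 (tolerance 0.001). The files still held 72 donor and 133 host cells under 500 genes, and 181 donor and 208 of 781 host cells over 20% mitochondrial UMIs, the limits in the methods. In the median donor cell, 91.3% of UMIs fell on listed genes. Total depth was 34011138, 64343817 and 2982296 UMIs (donor BMT replicates 1 to 3), 9405095 (donor BMT + T cells), 5141845 (host), and 27817737 and 24959785 (keratinocyte BMT and BMT + T cells).

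CP10K was averaged per library and cluster of at least 20 cells. Differences were fitted on log2(CP10K + 0.1) for genes with a mean of at least 0.1, with limma 3.58.1 (trend, robust; statmod 1.5.0, R 4.3.3), the library as block, and Benjamini-Hochberg adjustment. Differences are therefore understated for low genes. Donor clusters of 1 library share their mice and preparation, which is where the pairing of the block comes from. The comparison of labels used means over 3 clusters. Other steps ran in Python 3.11.15 with pandas 2.3.3, SciPy 1.17.1 and NumPy 2.4.6, and figures were drawn with matplotlib 3.10.9. Intervals are exact (Poisson or Clopper-Pearson, 95%) and cover counting error only. Doublets were not called here. On simulated data, 90% of 200 genes changed by 3 on the log2 scale were recovered for Mrc1+ macrophages minus resident mLC (7052 genes), and 98.5% for the labels (7050 genes), where 12 unchanged genes were called too. The simulated libraries differed less than the real ones did for these genes. Arg1 spanned 15.9 times between libraries in Mrc1+ macrophages, and Slc7a2 18.3 times in Mono. The recovered shares therefore do not give the power for the 9 genes, in particular between labels. Promoters came from RefSeq (GRCm38.p6), which had windows for 5 of the 9 genes.

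The 9 genes, the gene lists and the tests were chosen with earlier results of these data known. Genes outside the 9 were named by rule: the called genes of each list with the largest differences (at most 4 in each direction), paralogs and markers, and the 5 genes most like Arg1 and Mgl2. The 18 Retnla-high cells, and the genes given for them beyond the 9, were singled out after their counts were seen.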

Additional observations from a re-analysis of the deposited data

Results flagged for a closer look

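Mgl2 differed in direction between labels in MC minus Mrc1+ macrophages. The log2 difference was -0.15 in BMT + T cells and 1.07 to 2.97 in the 2 BMT libraries with both clusters. MC held 30 cells in BMT + T cells. The difference between labels was not tested.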

How the results depend on the processing

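Of 48 tested differences of these genes, 9 were smaller than their SE, and 32 of their 120 alternative values had the other sign, so no direction is given for them. For the other 39, of 538 alternative values 472 kept their direction and side of the threshold, 57 lost the call, 5 gained it, 2 changed sign and 2 moved. Among these 39 the sign changed for Retnla in Mrc1+ macrophages minus Mono without the 18 Retnla-high cells (0.14), an alternative chosen after seeing the data, and for Mgl2 between labels with all cells pooled (-0.57). Counts over all genes followed the scale. In Mrc1+ macrophages minus Mono, 78 genes were called with a pseudocount of 0.01, 5 with 1, 91 with voom on summed UMIs and 3 on means of the deposited log values, against 30. In Mrc1+ macrophages minus resident mLC these were 547, 42, 474 and 18 against 255. In resident mLC minus Mono they were 630, 41, 565 and 21 against 295, and 188 with the filter at 0.5 CP10K. In MC minus Mrc1+ macrophages they were 64, 4, 91 and 3 against 27, and in MC minus resident mLC 326, 14, 288 and 9 against 152. The cause was not tested. Leaving out 1 library gave 28 to 39, 245 to 269, 299 to 310, 19 to 26 and 141 to 156 calls in the same order, and 0 to 127 between labels, the 127 without BMT replicate 3.

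Without the replicate block the counts were 27, 252, 290, 18 and 156. Of 16 calls of these genes with the block, 5 were lost without it and 0 gained. They were Slc7a2 (adjusted p = 0.213) and Retnla (0.264) in Mrc1+ macrophages minus Mono, Retnla (0.0708) and Slc7a2 (0.0513) in resident mLC minus Mono, and Arg1 in MC minus Mrc1+ macrophages, all with limma. Of the 5 genes named as most like Arg1, 1 to 3 stayed in the top 5 without 1 library and 2 with either pseudocount, and for Mgl2 3 to 4 stayed. Of 81 shares of cells, 48 moved by more than 1 SD on thinning to 2000 UMIs. BMT replicate 3 (226 cells) limits what its clusters show.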
